A study of Mus musculus with 6 samples.

Results

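The genes described here are 37 genes of the mouse p53 pathway: Trp53, which encodes the transcription factor p53, its inhibitors Mdm2 and Mdm4, and 34 genes reported as p53 targets. They were taken by symbol from the deposited table of 17025 genes, and all 37 were present. Direct control of each gene by p53 in mouse was not tested. RNA-seq was done on epidermal cells sorted for integrin α6, the adhesion receptor of basal keratinocytes, from newborn mice at P0. The control-labelled libraries came from K14Cre,Ash2lF/+ animals (3 libraries) and the cKO-labelled ones from K14Cre,Ash2lF/F animals (3 libraries). All 6 therefore carried the K14Cre transgene and at least 1 floxed Ash2l allele, and none was treated. The keratin 14 promoter drives Cre in basal keratinocytes. In which cells of the sort Ash2l was lost was not tested. Whether each library came from a separate animal is not given in the sources used here, so the p-values speak only of the spread among these 6, which may be technical. The study asks what ASH2L, a shared subunit of the complexes that methylate histone H3 at lysine 4, does in differentiating epidermis and in hair follicle formation.

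p53 is held at a low level by MDM2, a ubiquitin ligase that is itself encoded by a p53 target gene. DNA damage and other stresses free p53 from MDM2, mostly without a change in Trp53 mRNA, and p53 then binds response elements in genes for cell cycle arrest, apoptosis, DNA repair and metabolism. In epidermis the related factor p63 maintains the basal layer and binds a similar DNA motif, and some of these genes, such as Sfn, are high in keratinocytes at rest.

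The classical p53 response element is a pair of 10-base half-sites. RefSeq promoter windows of GRCm38.p6, from 250 bases before to 50 bases after a transcription start, were at hand for 30 of the 37 genes (39 windows). The authors' processing used another build, GRCm39, so these coordinates belong to the RefSeq windows alone. The p53 half-site consensus, which reads the same on both strands, was matched exactly in 13 of the 39 windows (33.3%), against 2745 of all 32851 windows (8.36%). Windows of a gene can overlap, and those of Aen share the same match. By gene, 12 of the 30 had a match. A pair of half-sites at most 13 bases apart was found in 1 of the 39, that of Cdkn1a, against 24 of all windows (0.0731%). A match was present for 3 of the 11 genes with a window that passed the test between the groups and for 9 of the 18 that did not pass; Gdf15, which was not tested, had none. These are matches of letters in a short window and not bound sites. Below, 250 bases before the start are shown for Bax and Ccng1, which were lower in the cKO-labelled libraries, and for Mdm2 and Cdkn1a, which did not pass the test. Capitals mark the half-sites.
Bax, chr7:45466899-45467148, minus strand: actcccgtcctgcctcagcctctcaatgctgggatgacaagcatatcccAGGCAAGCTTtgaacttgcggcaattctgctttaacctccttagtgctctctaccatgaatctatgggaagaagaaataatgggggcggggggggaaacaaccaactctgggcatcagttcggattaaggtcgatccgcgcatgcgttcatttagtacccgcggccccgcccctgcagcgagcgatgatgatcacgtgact
Ccng1, chr11:40755287-40755536, minus strand: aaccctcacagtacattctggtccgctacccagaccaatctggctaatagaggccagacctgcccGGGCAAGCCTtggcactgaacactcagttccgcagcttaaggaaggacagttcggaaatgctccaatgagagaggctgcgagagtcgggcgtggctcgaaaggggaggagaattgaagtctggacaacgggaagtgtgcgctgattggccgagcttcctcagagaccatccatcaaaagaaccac
Mdm2, chr10:117710759-117711008, minus strand: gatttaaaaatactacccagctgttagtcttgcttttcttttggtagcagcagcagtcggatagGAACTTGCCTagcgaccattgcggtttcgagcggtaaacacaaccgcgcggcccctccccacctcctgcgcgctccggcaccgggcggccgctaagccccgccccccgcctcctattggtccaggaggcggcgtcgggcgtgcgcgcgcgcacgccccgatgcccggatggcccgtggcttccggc
Cdkn1a, chr17:29090729-29090978, plus strand: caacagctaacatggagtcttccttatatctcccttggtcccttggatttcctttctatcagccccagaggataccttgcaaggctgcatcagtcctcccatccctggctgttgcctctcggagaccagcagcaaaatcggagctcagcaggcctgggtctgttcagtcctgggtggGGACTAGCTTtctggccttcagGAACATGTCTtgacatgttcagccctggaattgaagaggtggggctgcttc
The half-site of Bax begins 201 bases before the start, that of Ccng1 185 bases and that of Mdm2 186 bases. Those of Cdkn1a begin 73 and 51 bases before the more upstream of its RefSeq starts.

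The libraries held 31578875 to 36027550 fragments each. By a chi-square per gene on fragments, control 1 stood apart from control 2 and 3 (150 and 155, against 56.6 between those) and cKO 3 from cKO 1 and 2 (286 and 280, against 15.4). Ash2l itself went against the labels: it lay between 12.4 and 18.1 FPKM (fragments scaled to gene length and to the library total) in the control-labelled libraries and between 22.9 and 30.9 FPKM in the cKO-labelled ones. The difference on the log2(FPKM + 1) scale was 0.81 (SE 0.19, n = 3 per group; limma adjusted p = 0.0240), and the call did not hold with control 1 (adjusted p = 0.0560), control 3 (0.0665), cKO 1 (0.0829) or cKO 2 (0.0810) left out. A gene total does not show whether a floxed exon was lost. Groups are therefore named by their labels, and every direction below rests on labels that the targeted gene went against. Basal keratinocyte markers such as Krt5 (2249 to 4876 FPKM) and Krt14 (1683 to 3147 FPKM) were high in all 6 libraries, but the 7 basal markers did not move together. In the cKO-labelled libraries Krt15 was higher (means 583 and 2745 FPKM, adjusted p = 0.00215) and Itgb4 lower (72.6 and 24.6 FPKM, adjusted p = 0.0437; the call was lost without any 1 of the control-labelled libraries). Itga6, which encodes the integrin used for the sort, was at 72.0 to 162 against 19.7 to 53.6 FPKM, without overlap (adjusted p = 0.0710). In the cKO-labelled libraries, 8 of 8 melanocyte markers were lower, with a summed level of 177 to 393 FPKM against 2952 to 3361 FPKM. Of 7 spinous keratinocyte markers 5 were higher (34674 to 68031 against 4578 to 6437 FPKM). Of 4 tested granular keratinocyte markers 2 were higher, and the 5 listed summed to 42.5 to 62.8 against 8.60 to 15.7 FPKM. Of 7 markers of stressed keratinocytes 6 were lower (1917 to 2496 against 3745 to 5016 FPKM), S100a8 and S100a9 being at 0 in 1 library each. None of 7 fibroblast markers was called by limma (149 to 447 against 95.1 to 344 FPKM; 1 higher and 0 lower at an unadjusted p under 0.05, and none called by limma-voom). Endothelial markers summed to at most 6.40 FPKM and immune markers to at most 3.32 FPKM in any library. The part of these shifts in the results below was not tested. Each library averages over its cells, so fewer cells of a type and less RNA per cell cannot be told apart.

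Of the 37 genes, 36 averaged at least 1 FPKM across the libraries and were tested among 11603 genes. In the cKO-labelled libraries, 11 were lower and 1 was higher at a limma adjusted p under 0.05, and 24 did not pass. The genes that fell were Slc19a2, Dcxr, Apaf1, Fas, Plk2, Phlda3, Tnfrsf10b, Bax, Polk, Ercc5 and Ccng1, and Sesn2 rose. Over all genes tested, 13.6% were called lower and 5.87% higher. The 11 lower genes stood above the share of all genes and the 1 higher gene did not. The 37 genes were chosen with earlier results of these data known, so this excess is a description and not a test. The median difference of the 36 genes was -0.45, against -0.17 for all genes tested. A difference of -0.5 or less was found in 47.2% of the 36 genes and in 25.6% of all genes. In 16 of the 36 genes every cKO-labelled library lay below every control-labelled library, against 30.9% of all genes, and in 1 gene, Sesn2, every one lay above, against 12.0%. For a single gene without overlap the exact permutation test, two-sided, gives p = 0.1, the smallest that 3 against 3 can give.

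Scaling the libraries by the median of ratios moved the median of all genes from -0.17 to 0.01 and the calls over all genes from 681 higher and 1576 lower to 998 and 1054. With that scaling the p53 genes had 1 higher and 8 lower and a median of -0.27. Ccng1 (-0.41, adjusted p = 0.113), Polk (-0.63, adjusted p = 0.0822) and Ercc5 (-0.49, adjusted p = 0.0540) lost their calls under it. Leaving out 1 library gave 7 lower without control 1, control 2 or cKO 1, 6 without control 3 or cKO 2 and 10 without cKO 3. On 4 libraries, the closest pair under each label (control 2 and 3, cKO 1 and 2), 19 were lower and none higher. These 4 were picked from the same data for their closeness, which shrinks the spread within the groups. Calls over all genes also rose on them, to 1174 higher and 2402 lower, so a call on the 4 alone adds no support for a gene. At an unadjusted p under 0.05, 1 of the 36 genes was higher and 18 were lower, against 10.1% and 24.6% of all genes tested. limma-voom on fragments called 0 higher and 11 lower, of which 10 were also lower by limma; Fas was not called by it (adjusted p = 0.0628) and Zmat3 was (adjusted p = 0.0329). Slc19a2, Dcxr, Apaf1, Plk2 and Bax were called lower in all 18 refits with another setting or without a library.

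**Figure D1:**
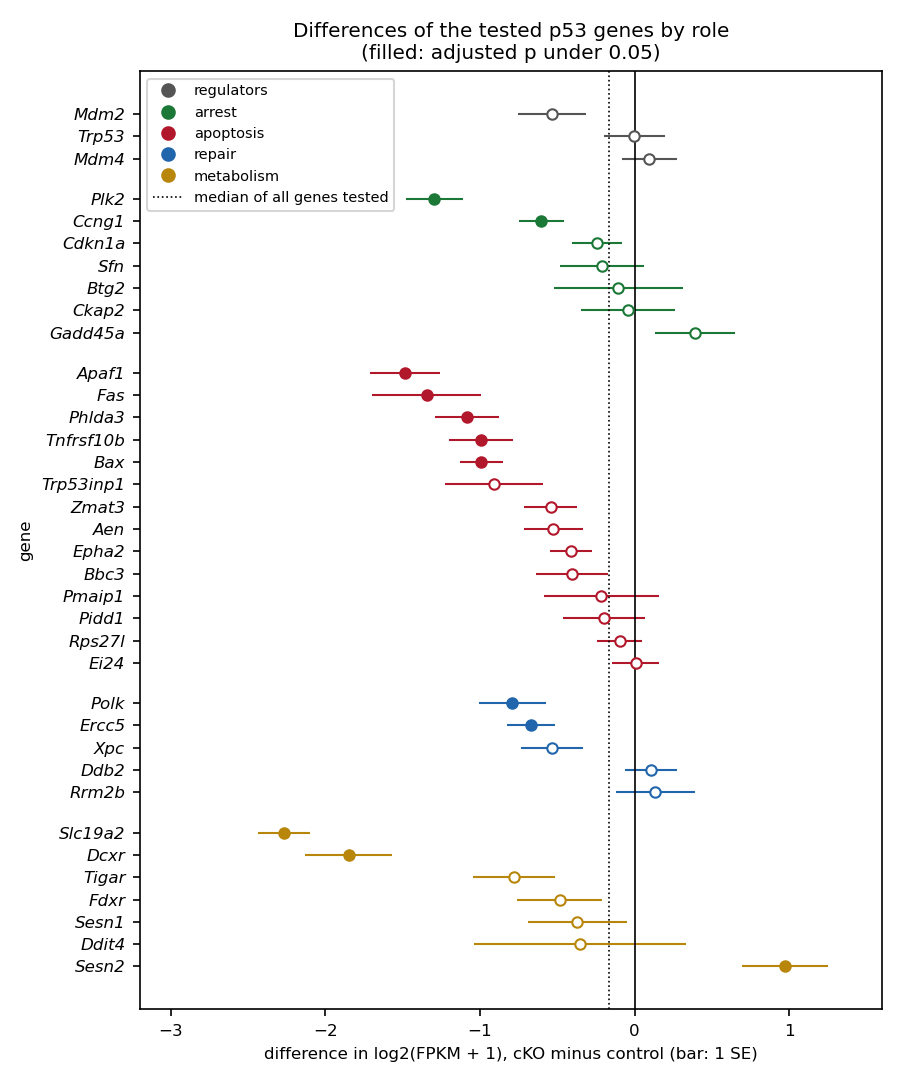
Difference in log2(FPKM + 1), cKO minus control by label (x axis, bar 1 SE, n = 3 per group), of the 36 tested p53 genes (y axis), grouped and coloured by role; filled points passed the test. The 11 lower calls run from Slc19a2 (-2.27) to Ccng1 (-0.60), and the dotted line marks the median of all genes at -0.17.

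Among the regulators none passed the test. Trp53 stood at 45.2, 33.6 and 28.9 FPKM in the control-labelled libraries 1, 2 and 3 and at 32.6, 32.0 and 41.8 FPKM in cKO-labelled 1, 2 and 3. The groups overlapped throughout, with a difference of -0.0028 (SE 0.20, adjusted p = 0.994). Trp53 mRNA is a poor measure of p53 activity, which is set mainly by protein stability. Mdm2 was at 15.3, 22.1 and 23.4 FPKM in the control-labelled libraries and at 16.0, 14.2 and 10.7 FPKM in the cKO-labelled ones. Control 1 lay among the cKO-labelled libraries, and the difference was -0.53 (SE 0.22, adjusted p = 0.128). Mdm2 was called on the 4 libraries (-0.56, adjusted p = 0.0176), which were picked for their closeness and leave out control 1. Mdm4, which encodes an MDM2 relative that masks the p53 activation domain, was at 30.2 to 31.5 FPKM and 28.1 to 42.9 FPKM (0.10, SE 0.18, adjusted p = 0.737). At an unadjusted p under 0.05, 1 of the 3 regulators was lower and 0 were higher, against 24.6% and 10.1% of all genes. None of the regulators was called by limma-voom.

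Of 7 genes for cell cycle arrest, Plk2 and Ccng1 were lower and the others did not pass, where 13.6% of all genes were called lower. Plk2 encodes a polo-like kinase with a role in centriole duplication and checkpoint signalling. Its level was 35.4, 46.3 and 55.3 FPKM in the control-labelled libraries 1, 2 and 3 and 19.6, 17.3 and 16.4 FPKM in cKO-labelled 1, 2 and 3. All the cKO-labelled libraries lay below all control-labelled ones, with means of 45.7 ± 9.96 and 17.8 ± 1.65 FPKM (SD, n = 3 each) and a difference of -1.30 (SE 0.19, adjusted p = 0.00416). Ccng1, which encodes cyclin G1, a partner of protein phosphatase 2A in MDM2 control, was at 21.4, 19.6 and 23.3 FPKM against 13.3, 13.2 and 14.7 FPKM. The groups did not overlap (-0.60, SE 0.14, adjusted p = 0.0258), but the call was kept only when cKO 3 was the library left out (adjusted p = 0.0515, 0.0594 and 0.0916 without control 1, 2 and 3, and 0.0909 and 0.0937 without cKO 1 and cKO 2).

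Cdkn1a, which encodes the cyclin-dependent kinase inhibitor p21 and is the best known arrest target, was at 169, 155 and 126 FPKM in the control-labelled libraries and at 119, 112 and 149 FPKM in the cKO-labelled ones. The groups overlapped, and the difference of -0.24 (SE 0.16) did not pass the test (adjusted p = 0.320). Sfn, encoding the epithelial 14-3-3σ protein that holds mitotic cyclin complexes in the cytoplasm, had the highest level of all 37 genes, with a mean of 486 FPKM over the 6 libraries. It lay at 344 and 352 FPKM in cKO 1 and 2, below the range of 426 to 579.6 FPKM in the control-labelled libraries, and at 689.8 FPKM in cKO 3, above it. Its difference was -0.21 (SE 0.27, adjusted p = 0.624), and without cKO 3 it was called lower (-0.54, adjusted p = 0.0420). Btg2, an antiproliferative gene, was at 25.8 FPKM in control 1 against 7.56 to 12.97 FPKM in the other libraries. Gadd45a (0.39, SE 0.26, adjusted p = 0.322), a growth arrest gene, and Ckap2 (-0.046, SE 0.30, adjusted p = 0.933), which encodes a microtubule-associated protein, overlapped between the groups.

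**Figure D2:**
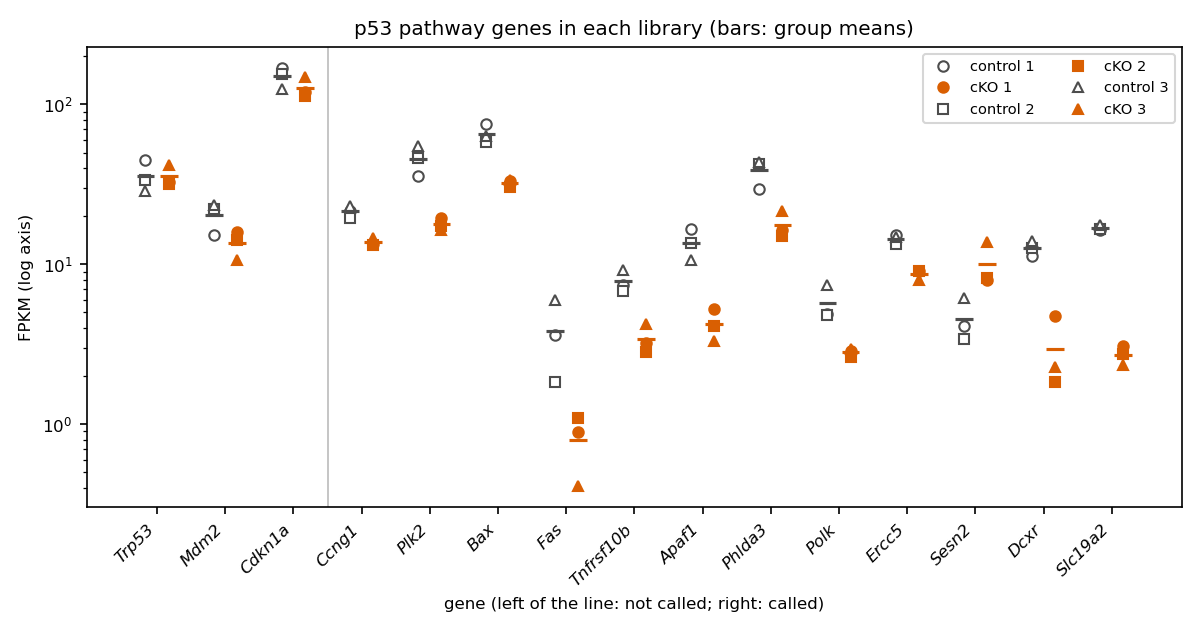
FPKM (y axis, log scale) of Trp53, Mdm2, Cdkn1a and the 12 called p53 genes (x axis) in each of the 6 libraries by label; symbols stand for the replicate numbers and bars for group means. The 3 genes left of the line overlap between the groups, and the 12 to its right do not; Slc19a2 lies at 16.5 to 17.5 FPKM in the control-labelled libraries and at 2.34 to 3.08 FPKM in the cKO-labelled ones.

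Of 14 genes for apoptosis, Apaf1, Fas, Phlda3, Tnfrsf10b and Bax were lower by limma at an adjusted p under 0.05 and none was higher; limma-voom called 5 lower, with Zmat3 in place of Fas, and 0 higher. At an unadjusted p under 0.05, 9 of the 14 were lower and 0 higher, against 24.6% and 10.1% of all genes. Their median difference was -0.53, and 13 of the 14 differences were below 0. Over all genes tested, 13.6% were called lower by limma, the median was -0.17 and 63.9% of the differences were below 0. Bax, which encodes the pore former of the outer mitochondrial membrane, was at 75.4, 58.5 and 63.4 FPKM in the control-labelled libraries 1, 2 and 3 and at 33.1, 30.6 and 33.5 FPKM in cKO-labelled 1, 2 and 3. The means were 65.8 ± 8.68 and 32.4 ± 1.55 FPKM (SD, n = 3 each), 2.03-fold apart, with no overlap (-0.99, SE 0.14, adjusted p = 0.00384). Exons of Bax overlap those of Gm45808 on the same strand in GENCODE vM21, and the part of this in the Bax counts was not tested. Apaf1, the scaffold of the apoptosome that activates caspase-9, fell from 16.6, 13.6 and 10.7 FPKM to 5.24, 4.08 and 3.33 FPKM (-1.48, SE 0.23, adjusted p = 0.00521). Its means were 3.23-fold apart, and every cKO-labelled library lay below every control-labelled one.

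Fas, encoding the receptor of Fas ligand, was the lowest of the 36 tested genes, at 3.60, 1.84 and 5.99 FPKM in the control-labelled libraries and 0.888, 1.09 and 0.409 FPKM in the cKO-labelled ones. These values rest on 278, 149 and 480 fragments against 73, 91 and 36. The groups did not overlap (-1.35, SE 0.35, adjusted p = 0.0350; 0.0628 by limma-voom). Of the 6 fits without a library, the one without control 2 kept the call, and the adjusted p was 0.0841 without control 1, 0.0938 without control 3 and 0.0763, 0.0654 and 0.0737 without cKO 1, 2 and 3. Tnfrsf10b, the mouse gene of the TRAIL receptor, was at 7.43, 6.82 and 9.16 FPKM against 3.24, 2.83 and 4.21 FPKM (-0.996, SE 0.21, adjusted p = 0.0158). All 3 libraries labelled cKO lay below the control-labelled ones, and the call was lost without control 3, cKO 1 or cKO 2 (adjusted p = 0.0613, 0.0561 and 0.0632). Phlda3, which encodes an inhibitor of the survival kinase Akt, was at 29.6, 42.4 and 43.9 FPKM against 16.3, 15.1 and 21.5 FPKM (-1.08, SE 0.21, adjusted p = 0.0113). These groups were also apart, and the adjusted p was 0.0533 without control 2.

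The other 9 apoptosis genes did not pass the test. Aen (-0.53, adjusted p = 0.0909), which encodes an exonuclease, Zmat3 (-0.54, adjusted p = 0.0612), an RNA-binding zinc finger gene, and Epha2 (-0.41, adjusted p = 0.0697), an ephrin receptor gene, had groups that did not overlap. All 3 were called lower on the 4 libraries (adjusted p = 0.0125, 0.0460 and 0.0168). Those libraries were picked for their closeness, so these calls add no support. Trp53inp1, a stress-induced gene that promotes p53 phosphorylation, was at 52.4 to 92.6 FPKM and 23.1 to 53.6 FPKM. Its groups overlapped (-0.91, SE 0.32, adjusted p = 0.0830), and without cKO 1 it was called (-1.19, adjusted p = 0.0398). The BH3-only genes, whose products trigger BAX, overlapped between the groups: Bbc3 (PUMA) was at -0.41 (SE 0.23, adjusted p = 0.252) and Pmaip1 (NOXA) at -0.21 (SE 0.37, adjusted p = 0.715). Pmaip1 was lowest in control 1, at 7.53 FPKM against 11.0 to 22.8 FPKM elsewhere. Pidd1, a scaffold of caspase-2 activation (-0.20, SE 0.26), Rps27l (-0.10, SE 0.14), and Ei24, an endoplasmic reticulum protein gene (0.0070, SE 0.15), lay nearest to 0. Rps27l is a close copy of Rps27, and whether their reads were told apart was not tested.

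Of 5 DNA repair genes, Polk and Ercc5 were lower by limma and none was higher, where 13.6% and 5.87% of all genes were called. limma-voom called 2 lower and 0 higher. At an unadjusted p under 0.05, 3 of the 5 were lower and 0 higher, against 24.6% and 10.1% of all genes. Ercc5 encodes the XPG endonuclease that cuts beside a lesion in nucleotide excision repair. It was at 15.2, 13.3 and 14.8 FPKM in the control-labelled libraries and at 9.13, 9.01 and 7.93 FPKM in the cKO-labelled ones (-0.67, SE 0.15, adjusted p = 0.0229). Polk, the gene of a translesion DNA polymerase, was at 4.85, 4.79 and 7.44 FPKM against 2.86, 2.61 and 2.96 FPKM (-0.79, SE 0.22, adjusted p = 0.0409). Neither gene overlapped between the groups. Ercc5 lost its call without control 1, 2 or 3, cKO 1 or cKO 2 (adjusted p = 0.0516, 0.0614, 0.0761, 0.0663 and 0.0718), and Polk without any 1 of the 6 libraries (adjusted p = 0.0535 to 0.126).

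Xpc and Ddb2, the damage recognition genes of excision repair, did not pass the test. Xpc was at 14.5 to 15.2 FPKM in the control-labelled libraries and at 11.3, 11.7 and 7.31 FPKM in the cKO-labelled ones, without overlap (-0.53, SE 0.20, adjusted p = 0.0992). Ddb2, whose product binds ultraviolet lesions ahead of XPC, was at 9.23 to 12.1 and 10.7 to 12.5 FPKM (0.11, SE 0.17, adjusted p = 0.691). Its exons overlap those of Acp2 on the other strand in GENCODE vM21, and the use of strand in counting is not given in the sources used here. Exons of Cdkn1a, Gadd45a, Ei24, Rrm2b and Tigar also overlap genes on the other strand, none of which is among the 17025 deposited genes. Rrm2b, the ribonucleotide reductase subunit that supplies nucleotides for repair, had levels that overlapped between the groups (0.13, SE 0.26, adjusted p = 0.743).

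Of 7 tested metabolic and stress genes, 2 were called lower and 1 higher, against 13.6% and 5.87% of all genes. They held the largest falls of the 36 genes and the only rise that was called. Slc19a2, which encodes a thiamine transporter, was at 16.5, 16.7 and 17.5 FPKM in the control-labelled libraries and at 3.08, 2.74 and 2.34 FPKM in the cKO-labelled ones. The means were 16.9 ± 0.563 and 2.72 ± 0.372 FPKM (SD, n = 3 each), 6.21-fold apart, and the difference was the largest of the 36 genes (-2.27, SE 0.17, adjusted p = 0.000715). Dcxr, the gene of a reductase of sugars and dicarbonyls, was at 11.2, 12.6 and 14.0 FPKM against 4.73, 1.83 and 2.29 FPKM. Its groups were also apart, 4.27-fold by their means (-1.85, SE 0.28, adjusted p = 0.00521). Sesn2, encoding a sestrin that senses leucine and restrains mTORC1 and is also induced through ATF4, was at 4.11, 3.43 and 6.16 FPKM against 7.96, 8.21 and 13.8 FPKM. The cKO-labelled libraries were all above the control-labelled ones (0.97, SE 0.28, adjusted p = 0.0444). That call was lost without any 1 library (adjusted p = 0.0501 to 0.144) and on the 4 libraries (0.69, adjusted p = 0.0861).

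Sesn1, a related sestrin gene, did not pass the test; its level was 23.7 to 31.9 FPKM and at 32.9, 24.7 and 12.5 FPKM in cKO 1, 2 and 3 (-0.37, SE 0.32, adjusted p = 0.442). Tigar, a fructose bisphosphatase that slows glycolysis, was at 3.03 to 5.73 and 1.45 to 2.22 FPKM, without overlap (-0.78, SE 0.27, adjusted p = 0.0774). Fdxr, the ferredoxin reductase of mitochondrial electron transfer, overlapped (-0.48, SE 0.28, adjusted p = 0.250). Ddit4 (REDD1), an inhibitor of mTORC1, was at 326 FPKM in control 1 against 48.2 and 52.1 FPKM in control 3 and 2, and at 65.0, 53.5 and 113 FPKM in cKO 1, 2 and 3. Its difference was -0.35 (SE 0.69, adjusted p = 0.747) with control 1 and 0.54 (adjusted p = 0.264) without it, so its direction rested on that library. Gdf15, a stress cytokine gene and a common readout of p53 in other tissues, was not tested: it had 5 fragments in cKO 2 (0.159 FPKM) and 0 in the other 5 libraries. A count of 0 allows up to 3 fragments, at most 0.103 FPKM in any library, counting error only.

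**Figure D3:**
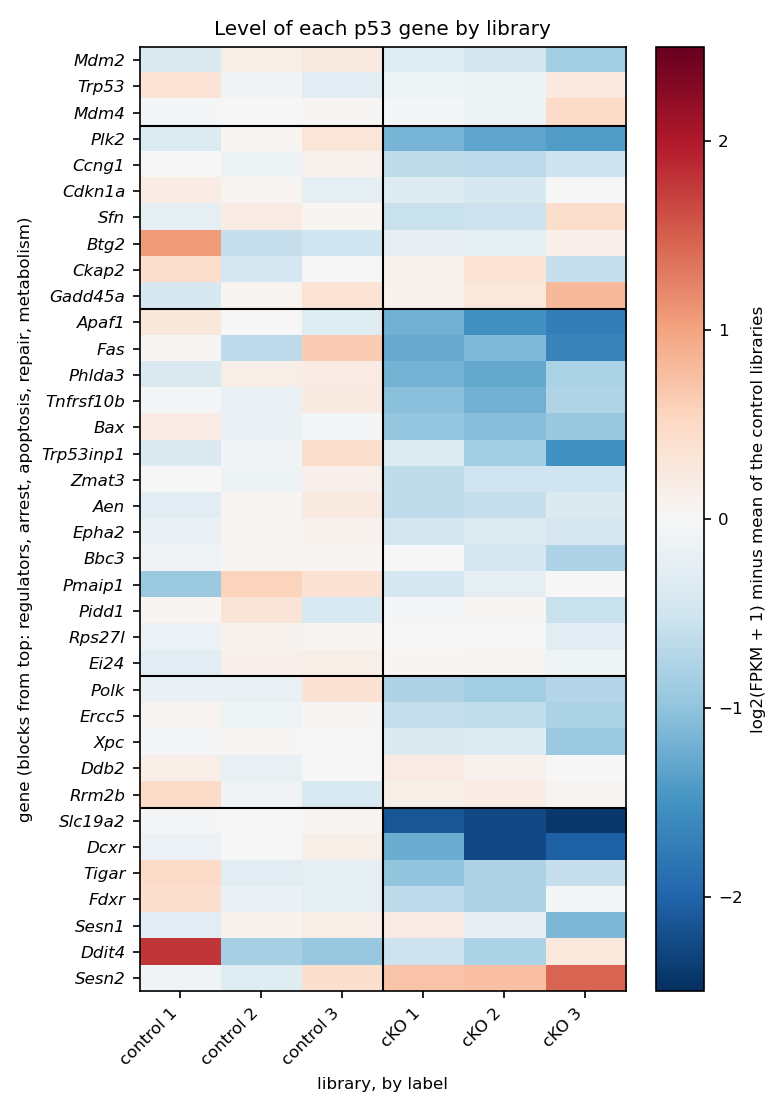
Level of each tested p53 gene (rows, in blocks by role) in the 6 libraries (columns, by label), as log2(FPKM + 1) minus the mean of the control-labelled libraries; blue is lower and red higher. The apoptosis block is mostly blue in all 3 libraries labelled cKO, Slc19a2 and Dcxr are the darkest rows, and control 1 stands out at Ddit4 and Btg2.

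The libraries of each group were not alike. Relative to the mean of the control-labelled libraries, the median over the 36 genes was -0.45, -0.48 and -0.54 in cKO 1, 2 and 3, where the median of all genes was -0.11, -0.12 and -0.30. For the 14 apoptosis genes it was -0.55, -0.54 and -0.66, and for the 7 arrest genes -0.32, -0.41 and -0.0038. cKO 3 was the lowest library for 13 of the 36 genes and the highest for 4, among them Sfn, Gadd45a, Mdm4 and Sesn2. cKO 2 was the highest for none. Control 1 and control 3 were the highest for 11 and 15 genes.

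Genes upstream of p53 and general apoptosis genes were compared with lists that hold none of the 37. Of 23 tested activators and modifiers of p53, such as the damage kinases ATM and ATR, none was called by limma, with 4 lower and 0 higher at an unadjusted p under 0.05 and 1 lower and 0 higher by limma-voom (median -0.23). The 4 lower are no larger a share than the 24.6% of all genes lower at an unadjusted p under 0.05, and the median of all genes was -0.17. Among the activators and modifiers with the smallest adjusted p were Mdc1 (-0.46, adjusted p = 0.0740), Rchy1 (-0.53, adjusted p = 0.0857) and Chek1 (-0.77, adjusted p = 0.133). Trp63, the gene of p63, was at 34.3 to 65.9 and 54.0 to 67.1 FPKM (0.40, SE 0.23, adjusted p = 0.262). Of 18 genes of the apoptosis machinery, 3 were lower and none higher, with 7 lower and 2 higher at an unadjusted p under 0.05 and 5 lower and 0 higher by limma-voom (median -0.42). The 3 called lower and the 2 higher at an unadjusted p are shares near those of all genes (13.6% and 10.1%), and 24.6% of all genes were lower at that p. Bak1, the partner gene of Bax, averaged 27.3 and 13.004 FPKM (-0.97, SE 0.23, adjusted p = 0.0245). Diablo, an antagonist of caspase inhibitors, was at -0.54 (adjusted p = 0.0459), and Casp8, the initiator caspase of death receptors, at 0.54 (adjusted p = 0.0511). Casp8 was called higher once libraries were scaled by median ratios (0.72, adjusted p = 0.0195). The 18 genes also include inhibitors of apoptosis, and none of these passed the limma test. Bcl2 (-0.82, adjusted p = 0.0540), Mcl1 (-0.72, 0.127), Bcl2l1 (-0.41, 0.165) and Bcl2l2 (-0.31, 0.188) lay below 0. Birc2 (0.52, adjusted p = 0.0878) and Xiap (0.044, 0.891) lay above 0. Leaving out control 2, cKO 1 or cKO 2 ended the call of Bak1, and any 1 library that of Diablo. The 3 calls became 0 without control 2, cKO 1 or cKO 2 and 1 without control 3.

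Of 25 further genes reported as p53 targets, 12 were lower and 2 higher, against 13.6% and 5.87% of all genes (median -0.75). This list, too, was chosen with earlier results of these data known. Sat1, an enzyme of polyamine breakdown, averaged 224 and 53.8 FPKM (-2.08, SE 0.24, adjusted p = 0.00219), Ephx1, an epoxide hydrolase, 44.0 and 9.89 FPKM (-2.04, SE 0.25, adjusted p = 0.00238), and Abhd4, a lipid hydrolase, 34.0 and 13.2 FPKM (-1.30, SE 0.20, adjusted p = 0.00548). Perp, a p53 and p63 target whose product sits in desmosomes, rose from 1156 to 2430 FPKM (1.07, SE 0.11, adjusted p = 0.00151). The 12 became 7 without control 1, control 3 or cKO 1 and 6 without control 2. Genes that p53 represses through p21 and the DREAM complex, which are genes of cell division, had no call among 19, with 4 lower and 0 higher at an unadjusted p under 0.05 and none by limma-voom (median -0.34). The 4 lower are no larger a share than the 24.6% of all genes lower at an unadjusted p under 0.05. The median of all genes was -0.17. The DREAM genes with the smallest adjusted p were E2f1 (-0.67, adjusted p = 0.0533), Rrm2 (-0.82, adjusted p = 0.0613), Mcm2 (-0.48, adjusted p = 0.0634) and Mcm5 (-0.73, adjusted p = 0.0995).

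**Figure D4:**
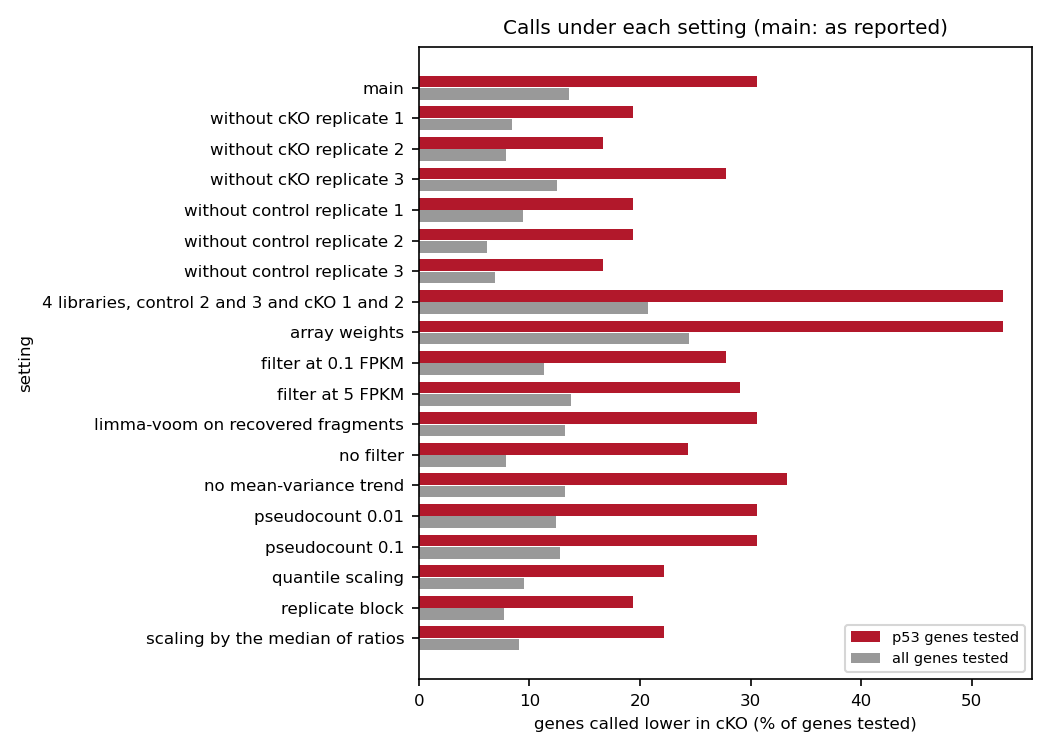
Share of genes called lower in the cKO-labelled libraries (x axis, % of genes tested) under each setting (y axis), for the p53 genes and for all genes tested. The share of p53 genes runs from 16.7% to 52.8% and that of all genes from 6.14% to 24.4%; with the values as reported they are 30.6% and 13.6%.

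In each of the 18 refits the share of p53 genes called lower was above that of all genes tested. It was 16.7% without control 3 or cKO 2, where 6.89% and 7.89% of all genes were lower, and 52.8% on the 4 libraries, where 20.7% were. The number of p53 genes with a difference below 0 was 30 of 36 as reported, against 63.9% of all genes. It was 25 to 31 in the refits, where 31 genes were tested with a filter at 5 FPKM and 37 with no filter. The share of all genes below 0 ran from 49.3% to 65.5% in the refits. Quantile scaling gave both the 25 and the 49.3%. All refits reuse the same 6 libraries or some of them, so they do not count as independent support. The p53 genes were chosen with earlier results of these data known.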

How the data were processed

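The authors deposited a table of FPKM values (17025 genes, 6 libraries). Per the submitters' processing notes, fastp, HISAT2, HTSeq and the build GRCm39 were used, with no versions. The annotation, gene filter and strand setting were not given in the sources used here. Groups and replicate numbers come from the labels.

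Low values are whole multiples of 1 fragment, so library totals and gene lengths were solved for; all 17025 genes then gave whole fragments within a tolerance of 1e-09. The closest pair of libraries, cKO 1 and 2, still differed by more than sampling noise (chi-square of 15.4 per gene).

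The 11603 genes averaging 1 FPKM or more entered the test, which was limma (version 3.58.1, R 4.3.3) on log2(FPKM + 1) with a group term and a trend of the variance on the mean. P-values were adjusted by Benjamini-Hochberg over all of these genes and called under 0.05. Differences are on that scale, which understates the change of low genes. limma-voom on the solved fragments was an alternative.

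The genes, roles, lists and tests were chosen with earlier results of these data known. Values in every library are given for Trp53, Mdm2, Cdkn1a and all called genes, and the 4 genes of smallest adjusted p are named for each further list. Of the genes this rule takes, 2 are not reported here. Promoter windows are from RefSeq, GRCm38.p6. Alternatives covered the pseudocount, filter, scaling, variance settings, replicate block, threshold and each library left out. Figures were drawn with matplotlib 3.10.9.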

Additional observations from a re-analysis of the deposited data

How the results depend on the processing

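The count of p53 genes called lower was 11 with the values as reported. It was 19 with array weights and on the closest 4 libraries (control 2 and 3, cKO 1 and 2 by label), 7 with the replicate block, 5 at an adjusted p under 0.01 and 17 under 0.1, and 6 to 10 with 1 library left out. The 1 higher gene became 0 on the 4 libraries, with no filter or a filter at 0.1 FPKM, with limma-voom, at an adjusted p under 0.01, and without any 1 library (0 to 0). The median of these genes (-0.45) was -0.51 and -0.52 with pseudocounts of 0.1 and 0.01, -0.54 with array weights and on the 4 libraries (-0.535 in both), -0.52 with limma-voom, -0.27 with either scaling, and -0.52 to -0.42 with 1 library left out.

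Ash2l, at 0.81, kept its direction in every refit; it lost its call with the replicate block (0.81, adjusted p = 0.0613), and it was 0.67 to 0.94 with 1 library left out. The replicate numbers were not taken to pair the libraries: deviations of same-numbered libraries correlated at -0.307, 0.0798 and -0.261. With the block, 1 apoptosis machinery gene and 6 further p53 targets were lower.

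Apoptosis machinery genes called lower (3) were 6 on the 4 libraries, 8 with array weights, 5 with limma-voom, 1 with either scaling and 0 to 3 with 1 library left out; those called higher (0) were 2 on the 4 libraries, with array weights and with either scaling, and 1 with a filter at 5 FPKM or no mean-variance trend. Further p53 targets called lower (12) were 6 with a filter at 5 FPKM, 7 with no filter and 6 to 9 with 1 library left out. Activators called lower (0) were 2 on the 4 libraries, 3 with array weights and 1 with limma-voom, and 1 was higher in each of the first 2. DREAM genes called lower (0) were 3 with array weights and 1 on the 4 libraries and without the trend.

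No called gene among the 36 changed direction in any refit. Of the 24 genes that did not pass, 12 kept their sign in every refit and 12 changed it in at least 1. Btg2 (-0.11) was 0.31 on the 4 libraries, 0.12 with array weights, 0.081 with quantile scaling, 0.081 with the median of ratios and -0.39 to 0.43 with 1 library left out, changing sign without control 1. Ckap2 (-0.046) was 0.44 on the 4 libraries, 0.34 with array weights, 0.15 with quantile scaling, 0.14 with the median of ratios and -0.26 to 0.22 with 1 library left out, changing sign without cKO 3 or control 1. Ddit4 (-0.35) was 0.23 on the 4 libraries and -0.83 to 0.54 with 1 library left out, changing sign without control 1. Ei24 (0.0070) was -0.077 on the 4 libraries, -0.029 with array weights and -0.13 to 0.084 with 1 library left out, changing sign without cKO 1, cKO 2 or control 1. Gadd45a (0.39) was -0.022 on the 4 libraries. Mdm4 (0.096) was -0.10 on the 4 libraries, -0.085 with array weights and -0.091 to 0.21 with 1 library left out, changing sign without cKO 3. Pidd1 (-0.20) was 0.014 on the 4 libraries and 0.012 with quantile scaling. Pmaip1 (-0.21) was -0.68 to 0.066 with 1 library left out, changing sign without control 2. Rps27l (-0.098) was 0.071 with quantile scaling and 0.099 with the median of ratios. Rrm2b (0.13) was -0.058 to 0.37 with 1 library left out, changing sign without control 3. Sesn1 (-0.37) was -0.66 to 0.0026 with 1 library left out, changing sign without cKO 3. Trp53 (-0.0028) was 0.050 on the 4 libraries, 0.0013 with limma-voom, 0.14 with quantile scaling, 0.19 with the median of ratios and -0.14 to 0.17 with 1 library left out, changing sign without cKO 1, cKO 2 or control 1. The cause of these changes was not tested. Depth limits Fas most, with 36 fragments in cKO 3.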
